A study of Mus musculus with 2 samples.

Results

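Cytochrome P450 enzymes (gene symbols beginning with Cyp) were surveyed in the epidermis of mouse pups in which SOX11, a DNA-binding protein of the SOXC group, had been switched on for 12 h. The members were all non-control array probes whose gene name is Cyp followed by a family number, which gave 121 of 55681 probes. They represent 96 gene names in 40 subfamilies. Each of 2 two-colour arrays compared littermates of strain FVB/N at P4.5. The control pup carried K14-rtTA alone, a transgene in which the keratin 14 promoter drives a doxycycline-dependent activator in basal epidermal cells. Its littermate also carried TRE-Sox11-FLAG, which that activator turns on, and both received doxycycline (Dox). Per the methods, epidermal sheets were peeled from dorsal skin with dispase, so cell types other than keratinocytes can be present.

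P450 enzymes are haem proteins that insert an oxygen atom into their substrates with electrons supplied by a reductase. Families 1 to 3 act largely on foreign compounds, family 4 on fatty acids, and higher-numbered families mostly make or break down steroids, bile acids, oxysterols, vitamin D and retinoic acid. In skin, P450 enzymes are known for converting drugs and pollutants, for the acylceramides of the permeability barrier and for local retinoid and vitamin D metabolism.

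Control RNA was labelled with Cy3 and SOX11-induced RNA with Cy5 on both arrays, so a positive log2 ratio of Cy5 over Cy3 marks a probe brighter after SOX11 induction. Since the dyes were not exchanged between these arrays, an effect of dye and an effect of genotype cannot be told apart for any single probe. Each array is called a pair below, and values are log2 ratios unless named as brightness. Errors are the SD over both pairs (n = 2). Adjusted p-values come from a limma fit over all 55676 probes measured on both arrays. A probe "passed" at an adjusted p under 0.05, and it was "called" if its mean log2 ratio also lay past 1.5 in either direction, the threshold in the methods. All 121 P450 probes were tested and none was saturated. The share of all spots that the scanner software marked as well above background was 37.5% and 38.7% in the control channels and 40.6% and 42.6% in the SOX11 channels. Neither probe for Sox11 was well above background in any channel (mean ratios -0.12 and -0.22). Since the transgene carries the coding part of Sox11 alone, and the place of these probes relative to it was not analysed here, they do not check the labels. All 8 epidermal keratinocyte markers, including Krt14, Krt5 and Krt10, were well above background in all 4 samples.

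Most P450 genes gave no signal that could be measured in this tissue. The scanner software marked 37 P450 probes, for 36 genes (37.5% of the 96), as well above background on both arrays, counting a probe that was so in 1 or both channels of each. The share of P450 probes was 30.6%, against 39.1% of all probes tested. A further 10 probes were well above background on 1 array alone, and 74 probes were never so, which is 61.2% of the P450 probes against 56.7% of all probes tested. Altogether 53 genes had no probe above background in any sample. A dim probe bounds the level at what the array can detect and does not show absence of the transcript.

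**Figure D1:**
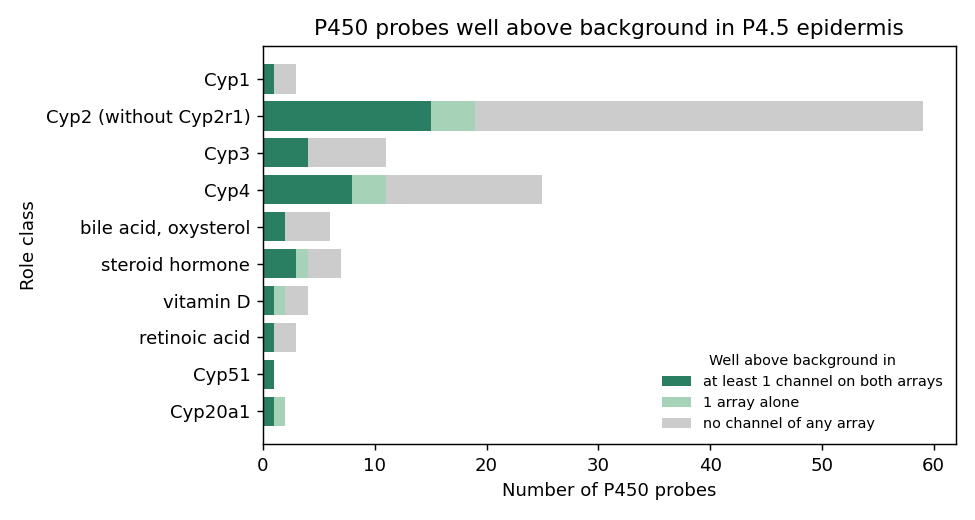
Number of P450 probes in each role class (horizontal bars, in probes), split by whether the scanner software marked them as well above background on both arrays (in either channel), on 1 array alone or in no channel. The Cyp2 family has 15 of 59 probes above background on both arrays and the Cyp4 family 8 of 25.

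The genes below background included many of the classical liver enzymes. In the Cyp3 family, 4 of 8 genes were well above background on both arrays. In the Cyp2 family (without the vitamin D hydroxylase Cyp2r1), 15 of 45 genes were so, with Cyp2c37, Cyp2c38 and Cyp2c70 among them. Those never above background included Cyp2e1, which oxidises ethanol, all 3 Cyp2a genes, 9 of 10 Cyp2d genes and 9 of 13 Cyp2c genes. Cyp1a1 and Cyp1a2, the best-known targets of the aryl hydrocarbon receptor, were never above background either. The same held for Cyp7a1, the rate-limiting enzyme of bile acid synthesis, for Cyp7b1, Cyp8b1 and Cyp27a1 of the same pathways, and for aromatase (Cyp19a1). In the vitamin D class, Cyp27b1 and Cyp24a1, which activate and inactivate the hormone, were never above background, whereas Cyp2r1 was. Of the 3 retinoic acid hydroxylases, Cyp26b1 was above background and Cyp26a1 and Cyp26c1 were not. Markers of tissues in which P450 enzymes abound were sparse too. The liver markers Alb, Ttr and Apoa1 and the lung markers Scgb3a2 and Sftpb were never above background, while Serpina1a and Scgb1a1 were.

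Among the P450 probes, 11 passed, 6 lower and 5 higher after SOX11 induction, which is 9.09% of the members against 4.39% of all probes tested (1.41% lower and 2.99% higher). Of the 11, 10 were among the 37 probes well above background on both arrays, 5 lower and 5 higher, where 9.99% of all probes chosen in that way passed (3.21% lower and 6.78% higher). A probe bright in 1 channel alone could enter the 37, as Cyp21a1 did through its SOX11 channels and Cyp2w1 through its control channels, so nothing is read from that share. Calls numbered 2, Cyp2f2 lower and Cyp21a1 higher, or 1.65% of the members against 0.453% of all probes (0.0862% lower, 0.366% higher). The median of the 37 probes was 0.04, as was that of all probes above background. Centring each array on its median in place of loess moved these medians to 0.43 and 0.51. With it 17 P450 probes passed higher and 18 lower, while 18485 of all 55676 probes passed. Of the lower ones, only Cyp2f2, Cyp4b1 and Cyp2w1 were above background on both arrays. The passes of all probes under median centring were not split by direction. Values under that setting are given below where they change whether a probe above background on both arrays passed. With the scanner software's processed signals no probe of the whole table passed (smallest adjusted p 0.242), and all 11 P450 probes kept their direction. In the series table, the number that passed was 7 of the 11, without Cyp2w1, Cyp3a13, Cyp39a1 and Cyp4a12a. Of the 37, 14 were negative in both pairs (background 33.1%), 13 positive in both (background 41%) and 10 of opposite sign. The 27 probes that did not pass had means from -0.44 to 0.51. Across the 37 probes Pearson's r between the pairs was 0.81, as a description, since both arrays share a slide, a scan and a dye orientation and the probes are not independent of one another.

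**Figure D2:**
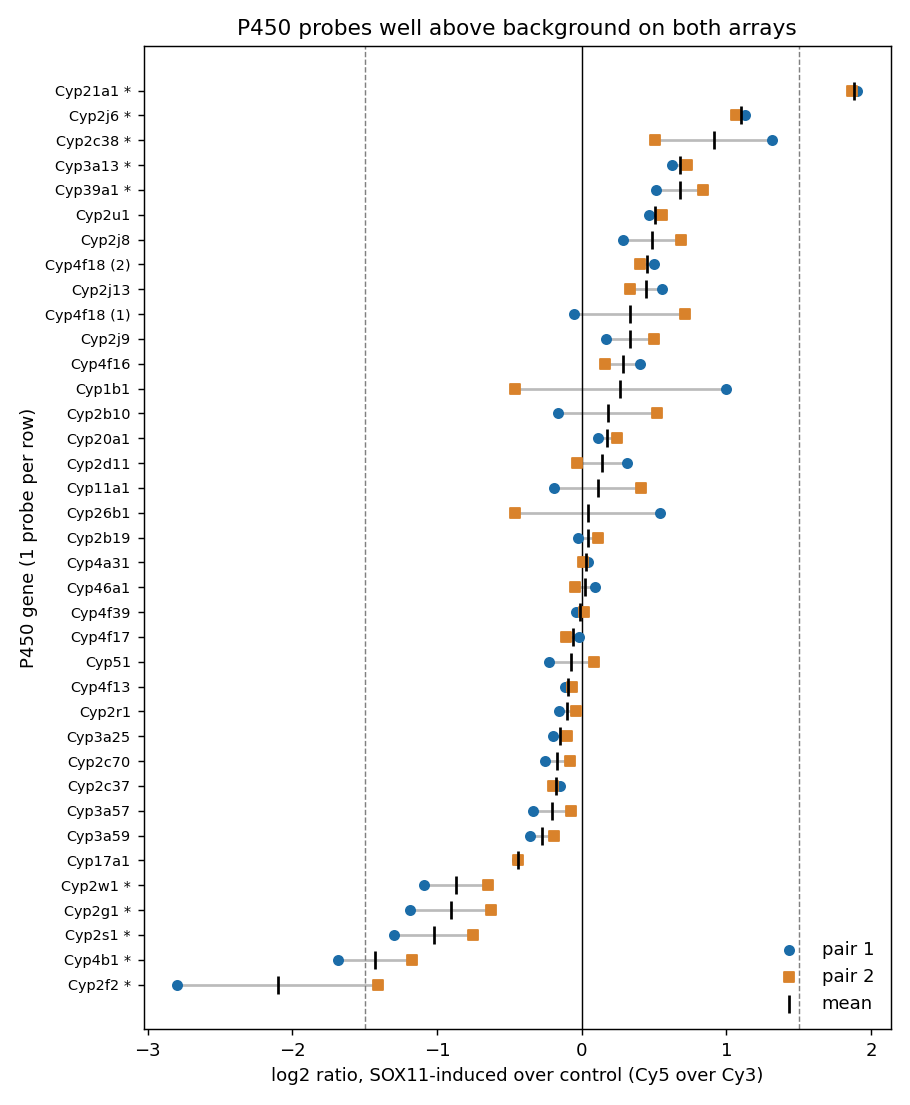
Log2 ratio of SOX11-induced over control epidermis (x axis) for each of the 37 P450 probes well above background on both arrays (rows), with pair 1 as circles, pair 2 as squares and their mean as a bar; dashed lines mark a log2 ratio of 1.5 in either direction and an asterisk marks an adjusted p under 0.05. Cyp2f2 (-2.10) and Cyp21a1 (1.88) lie at the ends, and most rows cluster near 0.

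Cyp2f2 is a P450 best known from club cells of the airway, where it activates naphthalene. Its normalized brightness on the log2 scale was 12.37 and 11.55 in the control pups of pairs 1 and 2, and 9.57 and 10.14 in their SOX11-induced littermates. Both controls were thus brighter than both SOX11-induced samples and the groups did not overlap. Here and below, such separation comes from the same intensities as the fit and is no support beyond it. How many of all probes separate in this way was not counted. All 4 samples were well above background, so the fall was measured within the range of the array. The log2 ratio was -2.79 in pair 1 and -1.41 in pair 2, a mean of -2.10 ± 0.980 (SD, n = 2; 95% interval -2.71 to -1.49; limma adjusted p = 0.0031), or 4.29-fold lower. It was the lowest mean of any P450 probe. The interval rests on the limma fit, which borrows its error from all probes, and both pair values lie outside it. Pair 2 on its own, at -1.41, did not reach 1.5, and median centring gave -1.46, which ends the call. The probe lies at chr7:27918570-27918629 on mm9. Because whole epidermal sheets were measured, fewer cells of a type and less RNA per cell cannot be told apart, for this gene and for those that follow.

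Cyp2f2 sits in the large Cyp2 cluster of chromosome 7, which also holds Cyp2s1, Cyp2g1 and the Cyp2b and Cyp2a genes. Between chr7:26587495-27943565 (mm9, 1356 kb) the array has 13 P450 probes for 12 genes, of which 5 were well above background on both arrays: Cyp2s1, Cyp2b10, Cyp2b19, Cyp2g1 and Cyp2f2. Of these, 3 passed, all lower (over the whole array, 3.21% of probes above background passed lower), and the pair of Cyp2b genes did not pass.

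Cyp2s1 is an epithelial P450 that also metabolises retinoids. Its log2 brightness was 12.12 and 11.24 in the controls and 10.82 and 10.50 in the SOX11-induced samples, again without overlap, with each induced pup below its own littermate and pair 1 falling further. The ratio was -1.29 and -0.75, a mean of -1.02 ± 0.386 (adjusted p = 0.0126), with the probe at chr7:26587495-26587554. Cyp2g1, known mainly from olfactory mucosa, had a brightness of 13.40 and 12.73 in the controls and 12.21 and 12.11 in the SOX11-induced samples. Both controls were the brighter. The ratio was -1.19 and -0.63, a mean of -0.91 ± 0.397 (adjusted p = 0.0220, chr7:27606111-27606170). With median centring, Cyp2s1 moved to -0.38 (adjusted p = 0.135) and Cyp2g1 to -0.21 (adjusted p = 0.398), and both lost their adjusted p, while Cyp2f2 kept its own.

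The Cyp2b genes between them gave other values. Cyp2b19, an arachidonic acid epoxygenase found in the upper layers of mouse epidermis, had a brightness of 13.16 and 12.91 in the controls and 13.14 and 13.02 in the SOX11-induced samples, so the groups overlapped. Its ratio was -0.02 and 0.11 (mean 0.04, 95% interval -0.30 to 0.38, adjusted p = 0.904). Cyp2b10, the prototype target of the receptor CAR, gave -0.16 and 0.52, of opposite sign in the pairs (mean 0.18, adjusted p = 0.626). With median centring both passed as higher, Cyp2b19 at 0.76 (adjusted p = 0.0058) and Cyp2b10 at 0.84 (adjusted p = 0.0090). Of 18 probes in the same span that are not P450, 5 were well above background, with means from -0.35 to 0.36 and adjusted p-values from 0.219 to 0.856. Within 30 kb of the Cyp2f2 probe, the oxygen-sensing hydroxylase Egln2 had probes at -0.57 (adjusted p = 0.0685) and -0.27, and Cyp2t4 was never above background. Differences between neighbouring genes were not tested.

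The sequences just before the start sites of cluster members are shown because genes that passed and genes that did not lie side by side there. They are 250 bases 5′ to 3′ on each gene's strand, from RefSeq on GRCm38.p6, a different build from the probe positions. Capitals mark matches, on either strand, to ACAAAG or ACAATG (cores that SOX proteins bind), AGGTCA (a nuclear receptor half-site) or GCGTG (the core of the aryl hydrocarbon receptor element, CACGC on the other strand). Cyp2f2 is at chr7:27119705-27119954 (+), Cyp2s1 at chr7:25816526-25816775 (-), Cyp2b10 at chr7:25897408-25897657 (+) and Cyp2b19 at chr7:26756892-26757141 (+).
Cyp2f2: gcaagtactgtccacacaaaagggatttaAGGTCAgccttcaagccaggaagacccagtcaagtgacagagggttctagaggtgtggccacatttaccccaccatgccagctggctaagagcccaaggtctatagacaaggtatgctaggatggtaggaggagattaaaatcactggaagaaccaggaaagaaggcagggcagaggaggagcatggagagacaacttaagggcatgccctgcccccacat
Cyp2s1: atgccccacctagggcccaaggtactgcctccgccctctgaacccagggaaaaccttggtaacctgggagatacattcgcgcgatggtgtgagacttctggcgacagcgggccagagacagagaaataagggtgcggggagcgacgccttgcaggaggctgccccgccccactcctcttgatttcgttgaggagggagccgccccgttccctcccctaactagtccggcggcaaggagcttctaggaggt
Cyp2b10: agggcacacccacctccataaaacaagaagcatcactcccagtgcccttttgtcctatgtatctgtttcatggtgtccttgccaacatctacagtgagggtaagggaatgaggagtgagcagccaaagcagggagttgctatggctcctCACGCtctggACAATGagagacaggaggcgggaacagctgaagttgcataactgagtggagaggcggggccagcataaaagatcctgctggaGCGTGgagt
Cyp2b19: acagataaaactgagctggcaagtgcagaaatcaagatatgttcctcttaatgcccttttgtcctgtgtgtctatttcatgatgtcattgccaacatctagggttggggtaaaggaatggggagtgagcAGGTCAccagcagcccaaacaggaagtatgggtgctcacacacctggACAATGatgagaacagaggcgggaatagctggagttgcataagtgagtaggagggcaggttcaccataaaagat

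The window of Cyp2f2, whose RNA fell, has AGGTCA 221 bases before the start and neither SOX core. The window of Cyp2s1 has no match to any of the 4 motifs. Cyp2b19, with a mean ratio near 0, has ACAATG 74 bases and AGGTCA 121 bases before the start. Cyp2b10 has ACAATG 91 bases before it, and GCGTG at 101 (as CACGC) and 9 bases. The Cyp2b windows resemble each other, with 65.9% identity, against 44.7% between Cyp2f2 and Cyp2s1. The windows of Cyp4b1 and Cyp2j6, described below, held none of the motifs, and Cyp2g1 and Cyp21a1 were not in the table. ACAAAG is in 16.5% of 32851 promoter windows of this length and in 34.8% of the 69 that belong to P450 genes of the array. For ACAATG the shares were 10.7% and 13%, for AGGTCA 14% and 23.2%, and for GCGTG 28.2% and 21.7%. These matches are short letter strings and not binding sites. Related neighbouring genes can share sequence, as the Cyp2b pair does, so the 69 windows are not independent, and the differences in share were not tested.

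In the Cyp4 family, which acts on fatty acids, 7 of 20 genes were well above background on both arrays. Cyp4b1 oxidises medium-chain fatty acids and bioactivates furans. Its log2 brightness was 8.01 and 7.80 in the controls and 6.32 and 6.63 in the SOX11-induced samples, and the groups did not overlap. Its ratio was -1.69 and -1.17, a mean of -1.43 ± 0.365 (adjusted p = 0.0021), 2.69-fold lower and just short of the size needed for a call. The probe lies at chr4:115297406-115297465. The Cyp4a12a probe in the same cluster also passed at -0.66 (adjusted p = 0.0443), but it was not above background in any sample, so no fold is given.

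The other Cyp4 genes above background did not pass under the main settings. Cyp4f39, the mouse counterpart of the human omega-hydroxylase that makes acylceramides for the skin barrier, had ratios of -0.04 and 0.02 (95% interval of the mean -0.35 to 0.33, adjusted p = 0.978). Its brightness ranged from 9.36 to 9.46 in the controls and from 9.32 to 9.48 in the SOX11-induced samples, which overlap. With median centring its mean was 0.58 and it passed as higher (adjusted p = 0.0187). The leukotriene hydroxylase Cyp4f18 had probes at 0.33 and 0.45, which overlap in position. The probe at 0.45 passed as higher with median centring (0.55, adjusted p = 0.0217) or no background correction (0.41, 0.0422). It had entered through its SOX11 channels alone. Cyp4f16 was at 0.28 (0.71 with median centring, adjusted p = 0.0073), Cyp4a31 at 0.03, Cyp4f17 at -0.06 and Cyp4f13 at -0.09. Of the 13 measured genes of the acylceramide pathway, all were well above background. None passed in the limma fit (4 had an unadjusted p under 0.05), and their median was 0.20. The share of all probes with such an unadjusted p was not counted, so nothing is read from the 4.

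Outside the chromosome 7 cluster, Cyp2w1, a P450 known mainly from fetal gut and colon tumours, was also lower. Its brightness was 6.0 and 5.87 in the controls and 4.91 and 5.22 in the SOX11-induced samples, neither of which was well above background. The groups did not overlap, and the fall was at least 1.38-fold. The fitted ratio was -1.09 and -0.65 (mean -0.87 ± 0.311, adjusted p = 0.0205, chr5:139832563-139832622). In all 5 falling genes above background, the fall was larger in pair 1 than in pair 2. How often this held among all probes that fell was not counted, so nothing is read from it.

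Cyp21a1, the steroid 21-hydroxylase of the adrenal cortex, was the P450 probe with the highest mean ratio. Its log2 brightness was 5.61 and 5.24 in the controls, neither of them well above background, and 7.51 and 7.11 in the SOX11-induced samples. Both SOX11-induced samples were the brighter and they were the only ones above background. The ratio was 1.90 and 1.87, a mean of 1.88 ± 0.0220 (adjusted p = 2.1e-04), and with the control at the detection limit the rise was at least 3.31-fold under the main offset of 16. The probe lies at chr17:34938298-34938357 (mm9). A second Cyp21a1 probe at chr17:34940497-34940556 gave 0.00 and 0.14 and was never above background, so it bears neither way on the first. The mouse genome also holds a pseudogene copy of Cyp21, and whether the probes bind it was not tested. A larger offset of 50 in the background correction reduced the mean to 1.27, below that bound, which ends the call, and the software's processed signals raised it to 3.70.

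Genes of the adjacent steps of steroid synthesis did not pass. Cyp11a1, which makes pregnenolone from cholesterol, gave -0.19 and 0.41 (adjusted p = 0.771). Cyp17a1, the 17-hydroxylase and lyase, gave -0.44 in each pair (adjusted p = 0.133), with brightness of 9.54 and 9.59 in the controls and 9.09 and 9.15 in the SOX11-induced samples. Those groups did not overlap, and the gene passed as lower with an offset of 50 (-0.39, adjusted p = 0.0331) or no background correction (-0.43, adjusted p = 0.0323), but with median centring the mean changed sign to 0.14. Cyp11b2 was above background on 1 array alone and Cyp11b1 and Cyp19a1 never. Cyp51, which demethylates lanosterol on the way to cholesterol, gave -0.23 and 0.09 (adjusted p = 0.840).

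The Cyp2j subfamily includes epoxygenases of arachidonic acid. Cyp2j6 had a brightness of 6.73 and 6.87 in the controls and of 7.86 and 7.94 in the SOX11-induced samples, without overlap. The ratio was 1.13 and 1.07, a mean of 1.10 ± 0.0431 (adjusted p = 0.0041, chr4:96192532-96192591), or 2.14-fold higher. The remaining Cyp2j genes above background on both arrays were Cyp2j8 (0.49, adjusted p = 0.130), Cyp2j13 (0.45, 0.139) and Cyp2j9 (0.33, 0.270), and these did not pass under the main settings. With median centring they passed, at 1.00 (adjusted p = 0.0020), 0.50 (0.0347) and 0.82 (0.0049). Cyp2j8 also passed with an offset of 50 (0.45, adjusted p = 0.0461) or no background correction (0.44, 0.0495), and Cyp2j13 with no correction (0.52, 0.0132). All 4 genes were positive in both pairs by the probe above background on both arrays, but Cyp2j13 had entered through its SOX11 channels alone. They lie within 584.9 kb of chromosome 4 and are similar in sequence, so their probes may share transcripts, which was not tested. Cyp2j5, above background on 1 array alone, had a mean of -0.35. A second Cyp2j8 probe, at -0.12 and -0.05 in the pairs, was never above background. A Cyp2j13 probe at 0.25 and -0.03 was never so, and another at 0.42 and 0.14 was so on 1 array alone.

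Another 3 P450 probes rose. Cyp2c38, an arachidonic acid oxidase, had a brightness of 5.86 and 6.07 in the controls, where it was well above background in pair 2 alone, and 7.18 and 6.57 in the SOX11-induced samples. The groups did not overlap but the pairs differed in size, 1.32 and 0.51 (mean 0.91 ± 0.571, adjusted p = 0.0357, chr19:39465415-39465474). Cyp3a13, a family 3 enzyme found outside the liver, rose from 6.56 and 6.90 to 7.19 and 7.63 in brightness. The ratio was 0.63 and 0.73 (mean 0.68 ± 0.0727, adjusted p = 0.0372, chr5:138335412-138335471). Cyp39a1, an oxysterol 7-alpha-hydroxylase, rose from 9.53 and 9.36 to 10.04 and 10.20. The ratio was 0.52 and 0.84 (mean 0.68 ± 0.229, adjusted p = 0.0459, chr17:43887735-43887794). In both of these genes every SOX11-induced sample was brighter than every control. The second probes of Cyp2c38 (-0.14), Cyp3a13 (0.21) and Cyp2j6 were never above background.

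**Figure D3:**
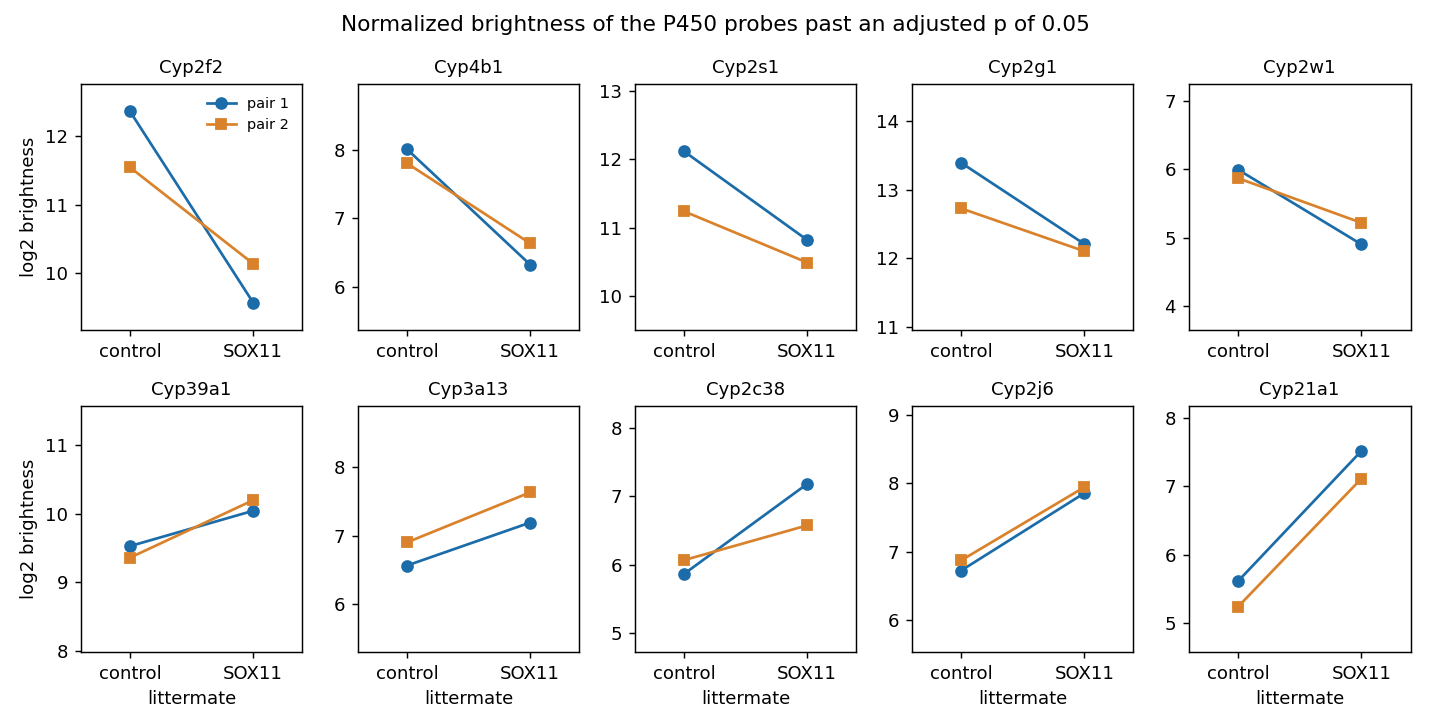
Log2 normalized brightness (y axis, each panel with its own position but the same span) in the control and SOX11-induced littermate of pair 1 (circles) and pair 2 (squares), for the 10 P450 probes past an adjusted p of 0.05 and well above background on both arrays. The panels run from Cyp2f2 (12.37 to 9.57 in pair 1) to Cyp21a1 (5.61 to 7.51 in pair 1). In all 10 both pairs move the same way, which passing on 2 pairs largely requires.

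Relatives of these genes had smaller values. In the Cyp3a cluster of chromosome 5 (chr5:146151322-146924544), Cyp3a25, Cyp3a57 and Cyp3a59 were at -0.15, -0.21 and -0.27, negative in both pairs, with adjusted p-values of 0.340 and above, and the first and second of them turned positive with median centring (0.18 and 0.22). Cyp2c37 and Cyp2c70 were each at -0.17, and Cyp2d11, the one Cyp2d gene above background, at 0.14 (0.51 with median centring, adjusted p = 0.0337). A second Cyp2c37 probe, at 0.36, was never above background. Cyp2u1, a fatty acid hydroxylase, came close to passing at 0.46 and 0.56 (mean 0.51 ± 0.0665, adjusted p = 0.0934). It passed as higher with an offset of 50 (adjusted p = 0.0139), with no background correction (0.0143) and with median centring (1.27, 3.5e-04). Its brightness was 13.98 and 14.10 in the controls and 14.44 and 14.66 in the SOX11-induced samples. The other Cyp2u1 probes, at 0.03 and 0.07, were never above background. Only the probe at 0.07 is annotated to a RefSeq transcript of the gene. Why the probes of this gene differ in brightness was not tested. Cyp46a1, the brain cholesterol 24-hydroxylase, was at 0.02, Cyp2r1 at -0.10, and Cyp20a1, an orphan enzyme, at 0.18. The Cyp20a1 probe had entered through its SOX11 channels alone.

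Of the 10 P450 probes above background on both arrays with opposite signs in the pairs, Cyp1b1 and Cyp26b1 had the largest SD. Next by SD were a Cyp4f18 probe (-0.05 and 0.72), Cyp2b10 (-0.16 and 0.52) and Cyp11a1 (-0.19 and 0.41), with the signs the other way round. Cyp1b1, which metabolises oestrogens and polycyclic hydrocarbons, had a brightness of 6.93 and 8.87 in the controls and 7.93 and 8.41 in the SOX11-induced samples. It was therefore higher after induction in pair 1 (1.00) and lower in pair 2 (-0.46), and the controls alone spanned a wider range than the induced samples (mean 0.27 ± 1.03, adjusted p = 0.632). Cyp26b1, which clears retinoic acid, had a brightness of 9.81 and 11.23 in the controls and 10.35 and 10.77 in the SOX11-induced samples. Its ratios were 0.54 and -0.46 (mean 0.04 ± 0.709, adjusted p = 0.936). With median centring both passed as higher, at 0.77 (adjusted p = 0.0347) and 0.67 (adjusted p = 0.0277). The 17 markers of hair shaft and inner root sheath had a median ratio of 1.93 in pair 1 and -0.38 in pair 2, the same signs as Cyp1b1 and Cyp26b1. All 17 were well above background in all samples, and their summed log2 brightness was 16.86 and 19.47 in the controls and 18.77 and 19.12 in the SOX11-induced samples. The part of hair follicle content in the Cyp1b1 and Cyp26b1 values was not tested. The 10 P450 genes that passed above background had the same sign in both pairs. Passing on the mean of 2 pairs largely requires this, so nothing is read from it. The 12 sebaceous gland markers had a median of -0.09, with summed brightness of 17.23 and 17.09 in the controls and 17.30 and 17.02 in the SOX11-induced samples, and 1 of them, Pparg, passed lower. Of 8 dermal fibroblast markers, 5 were above background and Lum, Pdgfra and Pdgfrb never, with a median of 0.37, Fn1 higher (1.43) and Dcn lower (-0.79), and summed brightness of 10.48 and 10.97 in the controls and 11.07 and 11.52 in the SOX11-induced samples. The 11 immune markers, 10 above background, had a median of -0.28 in pair 1 and -0.13 in pair 2, with summed brightness of 15.17 and 13.69 in the controls and 14.89 and 13.41 in the SOX11-induced samples. The 5 adipocyte markers, 3 above background, had summed brightness of 9.43 and 11.41 in the controls and 10.60 and 11.06 in the SOX11-induced samples. Of the 8 keratinocyte markers, Krt15 passed lower (-1.03). The part of these cell types in the P450 values was not tested.

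**Figure D4:**
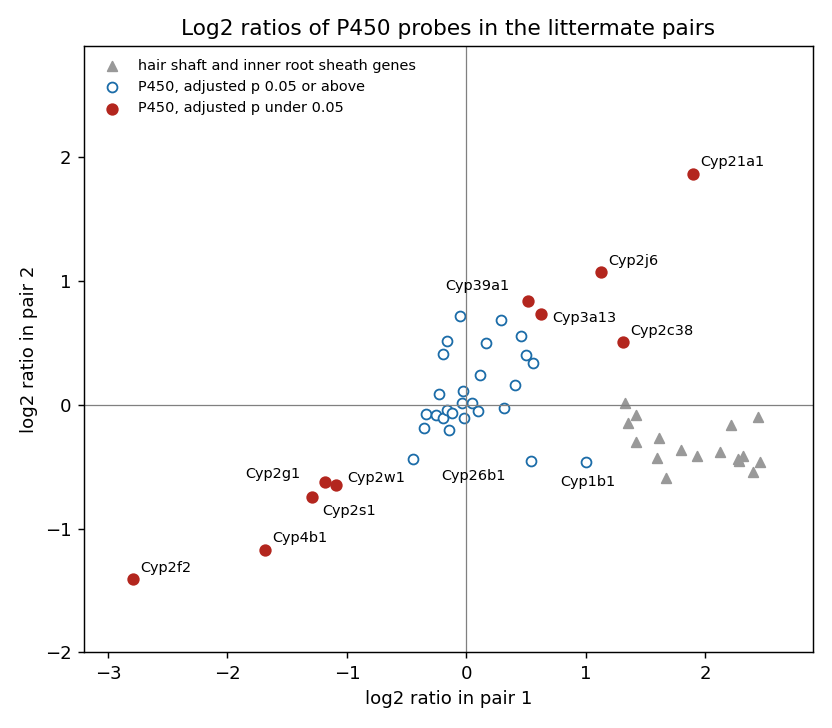
Log2 ratio in pair 1 (x axis) against pair 2 (y axis) for the 37 P450 probes above background on both arrays (filled circles have an adjusted p under 0.05) and for 17 hair shaft and inner root sheath genes (triangles). Cyp1b1 (1.00 and -0.46) and Cyp26b1 (0.54 and -0.46) lie toward the triangles, and Cyp2f2 (-2.79 and -1.41) lies at the other end.

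P450 enzymes work with electron donors, are switched on by ligand-activated receptors and share substrates with other enzymes. The 11 measured electron donors and partners, including the P450 reductase Por (0.29), were all well above background. None passed in the limma fit (6 had an unadjusted p under 0.05), and their median was -0.04. The share of all probes with such an unadjusted p was not counted, so nothing is read from the 6. Among 20 receptors and their markers, 18 of them above background, 1 passed higher and 3 lower, with a median of -0.20. Over all probes above background, 6.78% passed higher and 3.21% lower, which is the background for this list and for the conjugating enzymes below. The fatty acid receptor Ppara, known to drive Cyp4a genes, was at -2.01 and -1.71 (mean -1.86 ± 0.219, adjusted p = 3.3e-04). Its partner Rxrb was at -0.78 (adjusted p = 0.0232) and Pparg at -0.63 (0.0488), while the aryl hydrocarbon receptor target Tiparp was at 1.00 (0.0064). The receptor itself, Ahr, was at -0.43 and did not pass (0.139).

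Of 20 genes of retinoid handling, 13 were above background. The retinaldehyde dehydrogenase Aldh1a1 was at least 1.49-fold higher, with controls not well above background (mean 0.88, adjusted p = 0.0144). The retinoic acid hydroxylase Cyp26b1 did not pass, as given above. Of 32 other oxidising and conjugating enzymes, 25 above background, 2 passed higher and 3 lower (median -0.13). The glutathione transferase Gsta4 was at 2.16 and 1.96 (mean 2.06 ± 0.140, adjusted p = 1.5e-04) and Gsto1 at 0.82. The sulfotransferase Sult5a1 was at -1.88 and -1.56 (mean -1.72 ± 0.224, adjusted p = 4.9e-04), Gstt3 at -0.79 and the flavin monooxygenase Fmo5 also at -0.79.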

How the data were processed

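Values came from 2 Agilent arrays, 1 per littermate pair. Per the file headers, the deposited scanner intensity values were made with Agilent Feature Extraction 10.7.3.1, with probe positions on mm9; processed signals in the same files are background-subtracted and dye-normalized. The deposited log10 ratios of those signals were not used. Log2 ratios that the authors made by normexp and loess are in the series table.

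Mean spot brightness was background-corrected by normexp (offset 16) and loess-normalized within arrays, using limma 3.58.1 in R 4.3.3. Control and outlier spots (194 and 186) were dropped, spots of a probe averaged, and an intercept alone fitted with eBayes and Benjamini-Hochberg adjustment over 55676 probes. Each ratio is within a littermate pair. An exact sign-flip test of 2 arrays gives no p under 0.5, so p-values rest on the prior (8.34 degrees of freedom, prior SD 0.223). The number of arrays limits precision. Brightness is per channel after loess and Aquantile scaling and was not compared between probes. A probe was above background if at least 0.5 of its spots were flagged so. Bounds set a dim channel at the higher of its own signal and the lowest signal well above background, hold for the main offset, and are open to dye bias. The methods mention a colour swap, which the labels do not show.

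Of the 96 names, 93 were RefSeq symbols (GRCm38.p6), and array names were kept. Genes were named if they passed, if above background on both arrays, or on 1 array by name or count. One probe per list gene, the brightest, was used, and 1 list gene that passed is not reported here. The members and lists were chosen with earlier results of these data known. Alternatives tried were the offset, no correction, median centring, quantile scaling, processed signals, median spot brightness, the series table, outliers kept, bright probes alone and leaving out a pair.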

Additional observations from a re-analysis of the deposited data

How the results depend on the processing

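With processed signals no probe of the whole table passed in the limma fit (smallest adjusted p 0.242). The counts of P450 probes passing or called, and of list genes passing, thus fell to 0 in both directions. An unadjusted p under 0.05 was reached by 16 P450 probes, against 25 under the main settings. The share of all probes that did so was not counted. All 11 P450 probes kept their direction under every normalization tried. Of the 11, 10 still passed with an offset of 50 or with no background correction, 9 with median centring, 7 with median spot brightness or the series table, and 11 with quantile scaling or outliers kept. Among bright probes alone 9 of 10 passed, with Cyp2c38 lost (adjusted p = 0.0607). Calls numbered 1 with an offset of 50 (0 higher), where the whole table had 177, and 11 with a linear 1.5-fold threshold. The share of all probes past the linear threshold was not counted, so nothing is read from the 11. Median centring called 2 higher and 0 lower. P450 probes passing higher numbered 17 with median centring, 10 with no correction, and 3 with median spot brightness or the series table. With median centring 18 passed lower, most of them not above background on both arrays. Over all 55676 probes, 18485 passed with median centring, 5022 with no correction and 1827 with median spot brightness, against 2446 under the main settings. The number was 4405 with an offset of 50, and 1878 of 55681 in the series table. List genes passing higher numbered 42 with median centring and 10 with no correction or an offset of 50, and those passing lower 15 with no correction and 13 with an offset of 50. Median centring put the median of bright probes at 0.51, against 0.04, and turned the whole-table calls from 48 lower and 204 higher to 10 and 746. It reversed Cyp17a1 (0.14), Cyp2c70 (0.0076), Cyp2c37 (0.0040), Cyp4f13 (0.33), Cyp4f17 (0.26), Cyp4f39 (0.58), Cyp51 (0.43), Cyp3a57 (0.22), Cyp3a25 (0.18) and Cyp2r1 (0.26), of which Cyp4f39 passed, and 11 other bright P450 probes passed as higher in place of not passing. Other reversals were Cyp11a1 (-0.026, processed signals), Cyp4f39 (0.016, offset 50) and Cyp4f17 (0.013 with median spot brightness, 0.015 in the series table). Cyp2f2 ranged from -2.10 to -1.46. Its value without replicate 1 was -1.41 and without replicate 2 was -2.79, single values with no test. The cause was not tested. The slide as a block was not run, since both arrays lie on 1 slide. Probes near background limit what low P450 genes can show.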

Other observations

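Besides the probes named Cyp, 2 probes were described in the array files as cytochrome P450 under other names. One matches a Cyp2j7 pseudogene transcript (mean log2 ratio 0.02) and the other a 3A41-like locus (0.08), and neither was well above background in any channel. Thromboxane synthase (Tbxas1) and prostacyclin synthase (Ptgis), P450-related enzymes without a Cyp name, were likewise never above background.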
